A study of Saccharomyces cerevisiae with 8 samples.

Results

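XUTs are non-coding transcripts of budding yeast that were defined by their accumulation in cells without Xrn1, the cytoplasmic exonuclease that degrades RNA from its decapped end. The 468 XUTs described here stayed under a 2-fold increase in cells without Upf1, out of 1650 XUTs and 11993 features measured. They were chosen from the authors' group means by 2 conditions. The mean normalised read density over the 4 groups had to be at least 0.02, which 1472 XUTs reached. The ratio of upf1 to WT in DMSO, with 0.005 added to both values, had to be below 2. The members are thus 31.8% of the XUTs at that level, and the question put to them was which of them still rose with cycloheximide.

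Total RNA was sequenced strand by strand, after removal of ribosomal RNA, from 8 cultures of Saccharomyces cerevisiae BY4741, a haploid laboratory strain. The 4 groups were upf1 cells with cycloheximide (CHX), upf1 cells with DMSO, WT cells with CHX and WT cells with DMSO, with 2 replicates each, called biological replicates in the series design. Cells grew in YPD at 30 °C to an OD600 of 0.5 and were treated for 15 min with CHX at 100 µg/ml or with the same volume of its solvent DMSO. All cells were MATa and carried his3Δ1, leu2Δ0, met15Δ0 and ura3Δ0, and the upf1 cells also carried upf1*::kanMX4.

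XUTs are made by RNA polymerase II, and many run antisense to protein-coding genes. They are capped, and many reach the cytoplasm, where decapping exposes them to Xrn1. Upf1 is a helicase on which nonsense-mediated decay (NMD) depends, a pathway that reads translation termination far from the end of an RNA as a signal for degradation. CHX blocks translation elongation and leaves ribosomes standing on the RNA, and NMD needs translation to act. A XUT whose level depends on both translation and Upf1 would rise in both conditions, whereas the 468 members were chosen for a small change in upf1.

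The reads recovered from the densities, summed over all features, came to 9.09 to 25.64 M per library. Reads under overlapping annotations are counted more than once in these sums, which are not the sequencing output. By these sums upf1 with CHX held both the deepest and the shallowest library. Reads of NAM7 (YMR080C), which encodes Upf1, numbered 161 and 45 in upf1 with CHX and 134 and 96 in upf1 with DMSO, against 3300 and 4143 in WT with CHX and 1901 and 3868 in WT with DMSO. The auxotrophy genes LEU2 (up to 2 reads a library) and URA3 (up to 1) were almost unread. HIS3, also an auxotrophy gene of the strain, had 296 to 1570 reads, and MET17 was not found under that name. Of the pheromone receptor genes STE2, that of MATa cells, had 6380 to 27726 reads and STE3 had 22 to 518. The density is a number of normalised reads per nucleotide. Its library factors keep the median of 76 snoRNAs, the nucleolar guides of ribosomal RNA modification, level within 0.402%. On that scale the median protein-coding gene lay 1.55 higher on the log2 scale with CHX in WT, 1.14 higher with CHX in upf1, and 0.32 higher in upf1 than in WT under CHX. Each comparison was therefore also fitted after the libraries were rescaled on 5817 protein-coding genes, and values called mRNA-rescaled come from that fit. In these bulk samples more RNA per cell and a shift in the mixture of cells cannot be told apart.

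The members were low in WT with DMSO and several times more abundant in both CHX groups. Their median density was 0.0626 and 0.0725 in upf1 with CHX, 0.0262 and 0.0279 in upf1 after DMSO, 0.0738 and 0.0688 in WT with CHX, and 0.0172 and 0.0174 in WT with DMSO. Under CHX the medians of the 2 genotypes overlapped, whereas in DMSO both upf1 libraries lay above both WT libraries. The other 1004 XUTs of that level had a median density of 0.0977 and 0.115 in upf1 with CHX, 0.0470 and 0.0529 in upf1 after DMSO, 0.0756 and 0.0737 in WT with CHX, and 0.0103 and 0.0111 in WT with DMSO. Both sets were thus close in WT with CHX, and in WT with DMSO, a group the choice used, the members lay higher. As a share of the recovered reads summed over all features, which does not depend on the snoRNA scale, the members took 0.124% and 0.121% in upf1 with CHX, 0.0995% and 0.0973% in upf1 after DMSO, 0.141% and 0.131% in WT with CHX, and 0.0787% and 0.0745% in WT with DMSO. The WT libraries with CHX held the largest shares.

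**Figure D1:**
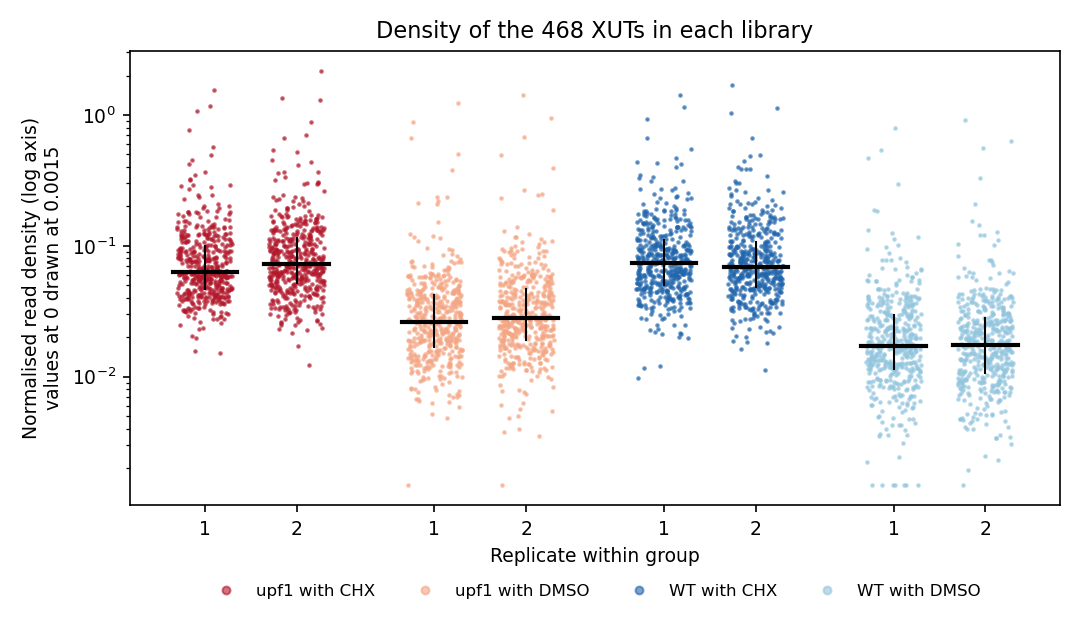
Normalised read density of the 468 XUTs in each of the 8 libraries (log axis). Each point is 1 XUT, horizontal bars are medians, vertical bars run between the quartiles. The medians of the 4 CHX libraries lie between 0.0626 and 0.0738, those of the upf1 libraries with DMSO at 0.0262 and 0.0279, and those of the WT libraries with DMSO at 0.0172 and 0.0174.

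Most members are rare. The median member had a mean density of 0.0468 and 162 reads over the 8 libraries, 420 members had a mean density under 0.1, and 14 reached 0.2. The median member had 39 and 13 reads in upf1 with CHX, 22 and 15 in upf1 after DMSO, 22 and 23 in WT with CHX, and 8 and 15 in WT with DMSO. In 4 libraries the median member therefore had 15 reads or fewer, which limits what can be called for a single XUT. Between the 2 replicates of a group the reads of the members differed by about as much as counting alone gives, with a chi-square per XUT of 1.27 in upf1 with CHX, 1.19 in upf1 after DMSO, 0.899 in WT with CHX and 0.864 in WT with DMSO. Over all features the same measure was 30.9, 31.9, 7.34 and 8.72 in that order, so the replicates were separate libraries. For the same relative spread this measure grows with the number of reads, so the lower values of the members do not mean closer replicates.

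The ratio that chose the members had a median of 1.52 and ran from 0.627 to 1.9996. It was below 1 for 42 members, from 1 to under 1.5 for 184, and from 1.5 to under 2 for 242. On the log2 scale the median member lay 0.59 higher in upf1 with DMSO than in WT with DMSO, and the median protein-coding gene 0.57 higher. By limma 215 members passed the threshold upward and 1 downward in that contrast, against 62.0% and 0.889% of all features. These counts describe the choice and are not a result. The lowest ratios belonged to XUT0691 (0.6275), XUT0728 (0.6811) and XUT1757 (0.6826). The last members inside the limit were XUT0031 (1.9962) and XUT0804 (1.9996), and the first XUTs outside it were XUT0939 (2.0013) and XUT0260 (2.0015). XUT0804 had group means of 0.0343 in upf1 with DMSO and 0.0146 in WT with DMSO, and XUT0939 had 0.0143 and 0.00462. The limit of 2 therefore falls within a continuous range of ratios.

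The members were shorter than the XUTs that rose 2-fold or more in upf1. Their median length, as recovered from the densities, was 420.5 nt (quartiles 289 and 661), against 750.5 nt (398 and 1313) for the 1004 others. Of the members 8.76% were 1000 nt or longer (41 XUTs), against 36.6% of the others (367), and 26.1% were under 300 nt (122), against 13.7% (138). Shorter XUTs gather fewer reads at the same density, and the median over the 8 libraries was 162 reads per member against 328 for the others. Whether the lower number of reads contributed to a ratio under 2 was not tested. Among the members the length rose with the ratio (Spearman's rho of 0.22 over 468 XUTs, a description) and showed no rank relation with the CHX change in WT (rho of 0.01).

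With CHX in WT nearly all members rose. Of 468 members, all of which passed the filter on low values, 453 were higher and 0 lower by limma, against 95.0% of all features called higher and 0.0769% called lower. Counted at an unadjusted p under 0.05, or by limma-voom on the recovered reads, the number of lower members was 0 too. The median log2 change was 1.71 (quartiles 1.35 and 2.12, median SE 0.24), next to 1.69 for all features, 1.55 for protein-coding genes, 1.70 for CUTs (cryptic unstable transcripts, cleared in the nucleus), 1.96 for SUTs (stable unannotated transcripts) and 2.24 for the 1004 other XUTs. A rise of 2-fold or more was seen for 419 members (89.5%, against 83.9% of all features), and of 4-fold or more for 143 (30.6%, against 31.3%). The 2-fold count depends on the pseudocount added before taking logs and was 141 with 0.05 in place of 0.005488. In 460 members both CHX libraries lay above both DMSO libraries, as they did in 96.8% of all features. The share that rose is therefore close to that of all features. The WT libraries with DMSO also enter the choice of the members, and a value that is high there by chance favours a XUT's inclusion and lowers its CHX change. The level condition works the other way, since it includes both CHX groups: 198 of the 468 members had a mean of 0.02 or more in WT with DMSO, and the rest reached the level through the other groups. Of the XUTs under the level 139 could be tested, of which 87.8% rose, at a median log2 change of 1.48.

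Relative to mRNAs a smaller part of the members rose. After mRNA rescaling 167 members were higher (35.7%) and 24 lower (5.13%) with CHX in WT, with a median log2 change of 0.40, against 44.1% higher and 18.9% lower among all features and a median of 0.07 for protein-coding genes. Of the 1004 other XUTs 78.8% were higher and 0.598% lower on that scale, with a median of 1.05. Among SUTs 60.5% were higher, among NUTs (transcripts that appear on depletion of Nrd1, a termination factor) 64.4%, and among CUTs 39.8%. The members thus lay nearer to CUTs (median 0.52) than to the other XUTs, a description of the shares for which no test was made. The WT libraries with DMSO are the baseline of this change and also the divisor of the ratio that split the members from the other XUTs. The split itself thus tends to lower the change of the members and to raise that of the other XUTs, on either scale.

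**Figure D2:**
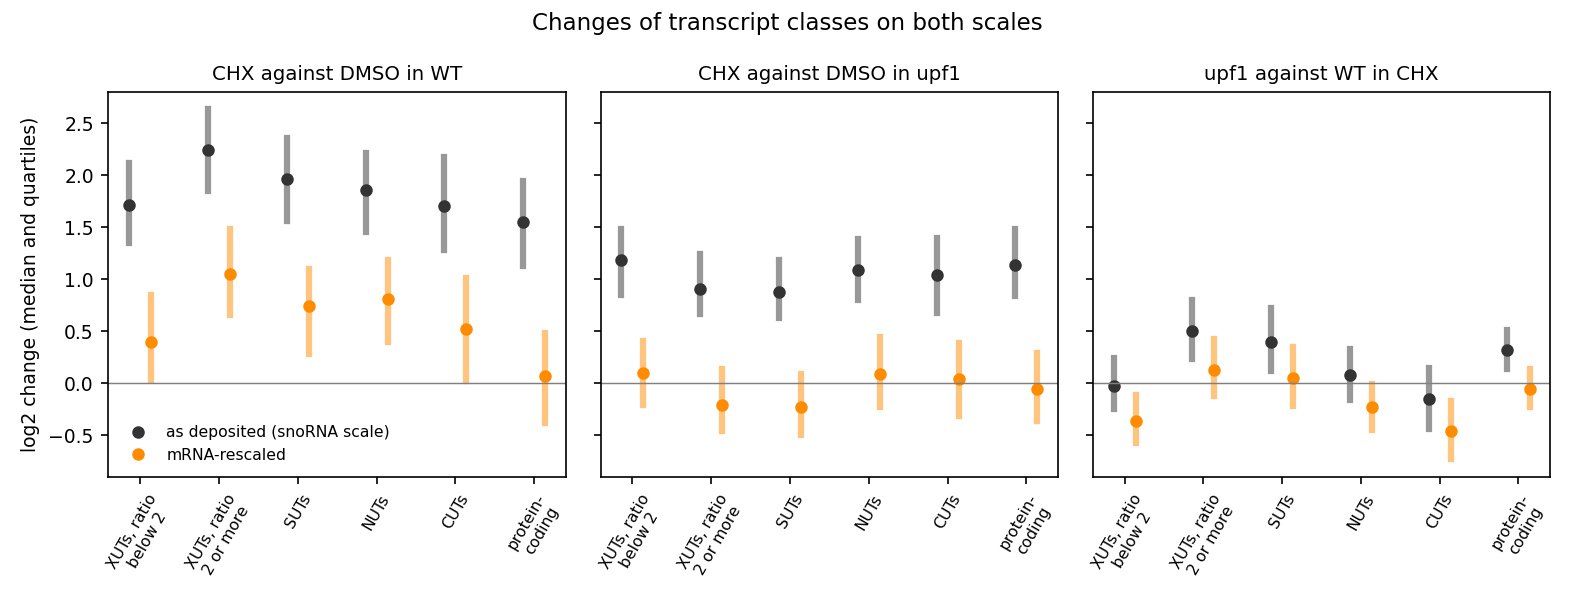
Log2 change of transcript classes in 3 comparisons, with the median (point) and quartiles (bar), on the deposited snoRNA scale (black) and after mRNA rescaling (orange). The XUTs with a ratio below 2 have medians of 1.71 and 0.40 with CHX in WT, 1.18 and 0.10 with CHX in upf1, and -0.03 and -0.36 for upf1 against WT under CHX.

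XUT1272 (1045 nt) had one of the largest rises among the members whose mean density over the 8 libraries was at or above the median, a condition that these XUTs met through the CHX libraries. Its density was 0.195 and 0.167 in WT with CHX, against 0.00822 and 0.00346 in WT with DMSO, from 134 and 122 reads against 9 and 7. Both CHX libraries lay far above both DMSO libraries, and the log2 change was 4.07 (SE 0.28, limma adjusted p = 3.59e-07, mRNA-rescaled 2.98), a 16.8-fold rise. With a pseudocount of 0.05 the change was 2.05, and XUT1223 (2.35), XUT0717 (2.15) and XUT0715 (2.10) lay above it. In the upf1 libraries, where the density was 0.0589 and 0.0608 with CHX and 0.0110 and 0.00487 with DMSO, it also rose, by 2.32 (SE 0.28, adjusted p = 3.05e-05). Its ratio in the choice was 1.19.

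XUT1223 (200 nt) had 0.274 and 0.25 in WT with CHX, against 0.0143 and 0.00775 in WT with DMSO. The groups did not overlap, and the log2 change was 4.04 (SE 0.22, limma adjusted p = 1.77e-07). In upf1 it had 0.158 and 0.172 with CHX, against 0.0164 and 0.0212 with DMSO, a change of 2.81. XUT0717 (535 nt) had 0.233 and 0.187 in WT with CHX, against 0.00714 and 0.00966 in WT with DMSO, a change of 3.95 (SE 0.23, adjusted p = 1.99e-07). XUT1592 (795 nt) had 0.130 and 0.126 in WT with CHX, against 0.00360 and 0.00520 in WT with DMSO, a change of 3.76 (SE 0.24). Both of these were below the lower quartile of the members in WT with DMSO (0.0115 and 0.0106), with 3 to 10 reads per library. In WT with CHX they were above the upper quartile (0.110 and 0.106).

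The other members of this set were XUT0762 (log2 3.52), XUT0769 (3.45), XUT0715 (3.38) and XUT1582 (3.36). XUT0762 rested on 10 and 19 reads in WT with CHX against 1 and 1 in WT with DMSO, so its size is uncertain. XUT0715 was the most abundant of them with DMSO, at 0.0178 and 0.0193, against 0.216 and 0.277 in WT with CHX. All 8 stayed called after mRNA rescaling, with log2 changes of 2.03 (XUT0715) to 2.98 (XUT1272), and when single libraries were left out.

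At the other end, 15 members were not called with CHX in WT, and 1 of these had a negative log2 change. That was XUT1484, named here after its values were seen, with 2 and 9 reads in WT after CHX against 12 and 16 after DMSO and a change of -0.46 (limma adjusted p = 0.303). XUT1391 (639 nt), also named after its values were seen, was flat in both genotypes, at 0.13 in WT and -0.01 in upf1. It had 14 and 10 reads in WT after CHX and 16 and 31 after DMSO, and the densities overlapped.

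Among the more abundant members XUT0944 (424 nt) had the smallest change. Its density was 0.0717 and 0.0471 in WT with CHX, against 0.0518 and 0.0390 in WT with DMSO. The groups overlapped, and the log2 change of 0.34 did not pass (SE 0.23, limma adjusted p = 0.172), though it did without replicate 2 of WT with CHX (0.61, adjusted p = 0.041). In upf1 it was at 0.0986 and 0.106 with CHX, against 0.0749 and 0.0900 with DMSO, a change of 0.30 that did not pass either (adjusted p = 0.227).

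XUT1564 (550 nt), which is well measured, had 241 and 259 reads in WT with CHX and 270 and 590 in WT with DMSO. The densities were 0.666 and 0.672 in WT with CHX, against 0.469 and 0.554 in WT with DMSO. The groups did not overlap, and the change of 0.39 (SE 0.15, adjusted p = 0.0249, mRNA-rescaled -1.14) was lost without replicate 1 of WT with DMSO (0.27, adjusted p = 0.233) and without replicate 1 or 2 of WT with CHX (0.39 and 0.38, adjusted p = 0.0964 and 0.106). In upf1 the change was 0.28 (adjusted p = 0.0908), from 0.764 and 0.880 with CHX against 0.666 and 0.682 with DMSO.

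The next were XUT1198 (log2 0.42), XUT1540 (0.52), XUT1269 (0.58), XUT0880 (0.61), XUT0859 (0.62) and XUT1547 (0.62). XUT1198 and XUT1540 did not pass the threshold, but did without replicate 1 (0.62, adjusted p = 0.0393) and replicate 2 (0.87, adjusted p = 0.00888) of WT with CHX in turn, and the other 4 passed on the deposited scale. Each of those 4 calls was lost without at least 1 library, and XUT0859, closest to the threshold (adjusted p = 0.0451), also lost its call with a pseudocount of 0.05 or 0.001 (0.0533 and 0.0503), with no filter on low values (0.0582) and with the replicate block (0.0595). Without replicate 2 of WT with DMSO its change was 0.39. All 8 XUTs of this set were below 0 and called lower after mRNA rescaling, from -0.78 (XUT0880) to -1.14 (XUT1564), so on either scale they changed less than the median mRNA did.

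**Figure D3:**
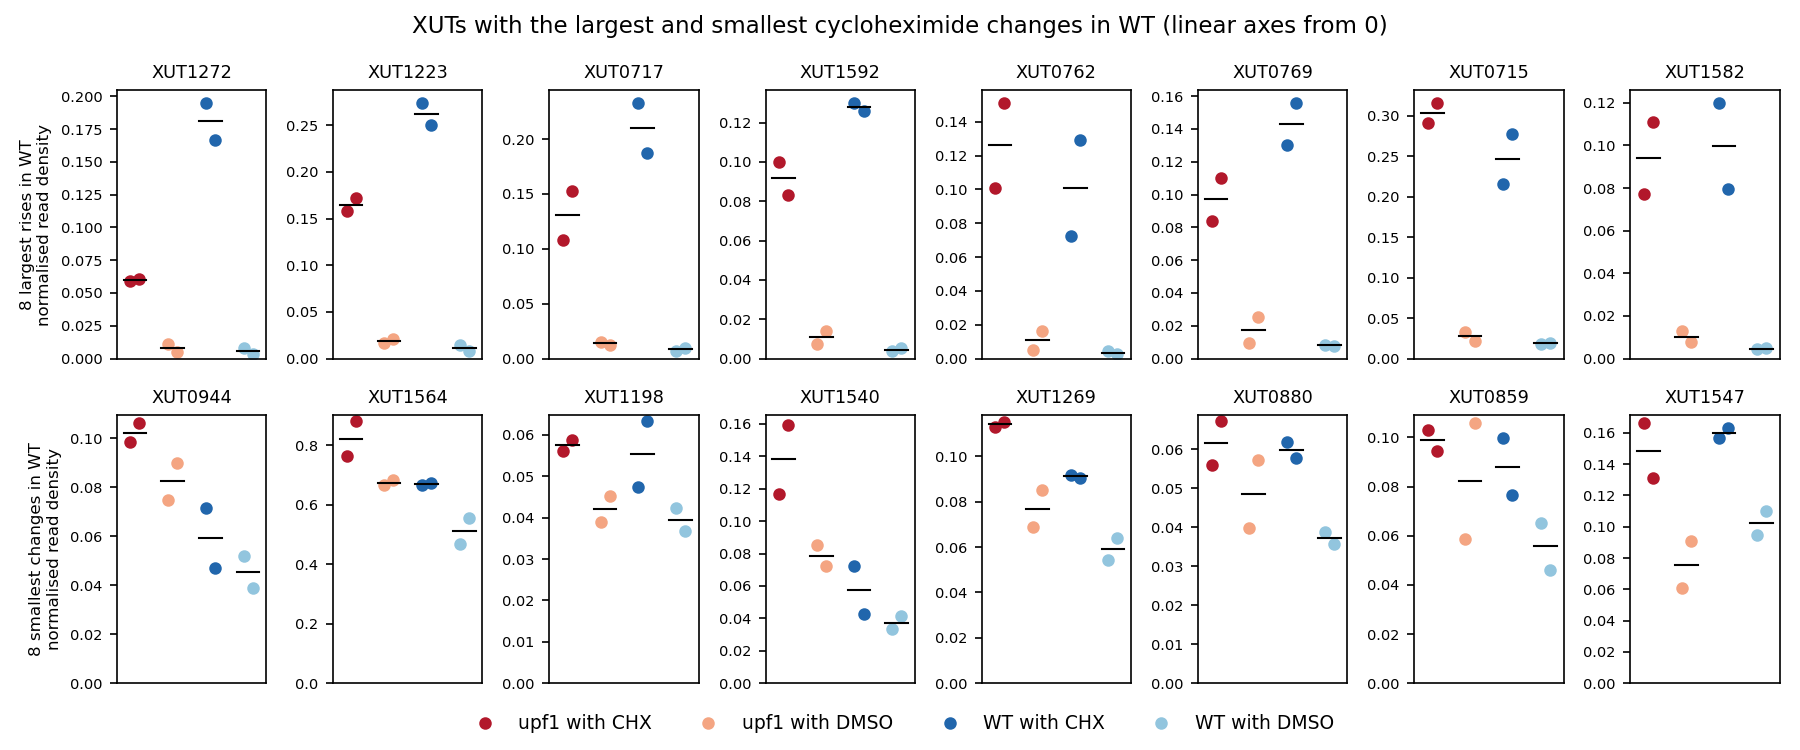
Normalised read density of 16 XUTs in the 8 libraries, linear axes from 0. The upper row shows the 8 largest rises with CHX in WT among members at or above the median density, the lower row the 8 smallest changes, points are libraries and bars are means of 2. In the upper row all CHX libraries stand above all DMSO libraries of the same genotype, and in the lower row the groups lie close together or overlap, with log2 changes in WT of 0.34 to 0.62 that turn to -1.14 to -0.78 after mRNA rescaling.

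Of the 3 most abundant members 2 changed alike and the other more. XUT0109 (376 nt) had 1.43 and 1.68 in WT with CHX, against 0.797 and 0.908 in WT with DMSO, a log2 change of 0.86 (adjusted p = 0.000639) that turned to -0.67 after mRNA rescaling. XUT1511 (2685 nt) had 0.929 and 1.12 against 0.536 and 0.636 in the same groups, a change of 0.80, or -0.73 after rescaling. XUT0927 (558 nt) had 1.14 and 1.03 against 0.298 and 0.329, a change of 1.77, or 0.25 after rescaling. Relative to the median mRNA the first 2 were lower, and XUT0927 did not pass (adjusted p = 0.0714), although their ratios in the choice, 1.55, 1.55 and 1.58, were nearly equal.

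With CHX in upf1 most members rose as well. By limma 421 were higher and 0 lower, against 89.0% and 0.231% of all features, and 0 were lower at an unadjusted p under 0.05 or by limma-voom. The median log2 change was 1.18 (quartiles 0.85 and 1.48), next to 1.14 for protein-coding genes and 0.91 for the 1004 other XUTs. A rise of 2-fold or more was seen for 297 members (63.5%, against 56.2% of all features), and for 55 with a pseudocount of 0.05. Both CHX libraries lay above both DMSO libraries in 446 members, as in 93.8% of all features. On the mRNA-rescaled scale 59 members rose and 31 fell, against 16.1% and 21.4% of all features, and the median was 0.10. The upf1 libraries with DMSO also enter the choice, and a value that is low there by chance favours inclusion and raises this change. For the 1004 other XUTs the choice works in the opposite direction.

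XUT0313 (221 nt) was among the members with large changes in upf1, at 0.132 and 0.108 with CHX against 0.0 and 0.0230 with DMSO. It rested on 0 and 6 reads with DMSO and its 2 replicates there stood apart, so the log2 change of 3.32 (SE 0.57, limma adjusted p = 0.000288) is imprecise. It was 2.13 without replicate 1 of upf1 with DMSO, and 1.49 with a pseudocount of 0.05, where XUT0181 (2.36) and XUT0715 (2.19) lay above it. XUT0181 (202 nt) had 0.289 and 0.524 in upf1 with CHX, against 0.0379 and 0.0336 in upf1 with DMSO. The groups were wide apart, with a change of 3.26 (SE 0.26, adjusted p = 3.53e-06), and in WT the change was 3.02, from 0.211 and 0.268 with CHX against 0.0236 and 0.0256 with DMSO. XUT0715 followed at 3.25, XUT0762 at 3.09 and XUT1223 at 2.81, all 3 of which were also among the largest rises in WT.

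Among members at or above the median density, the smallest changes in upf1 were those of XUT0984 (-0.08), XUT1089 (0.18) and XUT1138 (0.26), none of which passed on the deposited scale. After mRNA rescaling all 3 were called lower, at -1.14 (limma adjusted p = 0.00948), -0.95 (0.00153) and -0.93 (0.000521) in that order. XUT0984 rested on 10 and 6 reads in upf1 after CHX against 18 and 17 after DMSO, and its sign turned without replicate 1 of upf1 with CHX (0.37) or replicate 2 of upf1 with DMSO (0.17). XUT1138 (1224 nt) had far more reads, 379 and 136 after CHX against 479 and 334 after DMSO. Its density was 0.244 and 0.294 in upf1 with CHX, against 0.214 and 0.231 in upf1 with DMSO. The 2 groups were close but did not overlap, and the adjusted p was 0.148, or 0.0447 without replicate 1 of upf1 with CHX (log2 0.39). In WT the same XUT was at 0.240 and 0.268 with CHX, against 0.131 and 0.120 with DMSO, a rise of 0.98 (SE 0.16, adjusted p = 0.000127, mRNA-rescaled -0.51). XUT1089 (702 nt) was at 0.0809 and 0.0905 in upf1 with CHX, 0.0702 and 0.0797 in upf1 after DMSO, 0.0867 and 0.0935 in WT with CHX, and 0.0381 and 0.0346 in WT with DMSO. For both, 3 of the 4 groups were near one level on the deposited scale and WT with DMSO was lower. Both XUTs were named for their small change in upf1, so the nearness of their upf1 groups follows from that choice. The difference between the genotypes in the CHX change was not tested, since it contains the contrast that chose the members.

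Of the 468 members 416 were called higher with CHX in both genotypes (88.9%, against 87.9% of all features). They were 91.8% of the members called in WT and 98.8% of those called in upf1, against 92.6% and 98.8% for all features. A further 37 were called in WT alone, 5 in upf1 alone and 10 in neither. A rise of 2-fold or more was found in both genotypes for 287 members, in WT alone for 132, in upf1 alone for 10 and in neither for 39. Relative to mRNAs 50 members were higher in both (10.7%, against 13.2% of all features), which is 29.9% of the WT list and 84.7% of the upf1 list, against 29.9% and 82.0% for all features. All of these shares are near the background. The comparisons use separate libraries, but the choice held the ratio of upf1 to WT in DMSO below 2. The DMSO levels that enter both changes are thus tied to each other among the members. The order of the members was similar in both, with a Spearman's rho of 0.69 over 468 XUTs, next to 0.68 over protein-coding genes and 0.60 over the 1004 other XUTs. These correlations are across transcripts, which are not independent replicates.

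**Figure D4:**
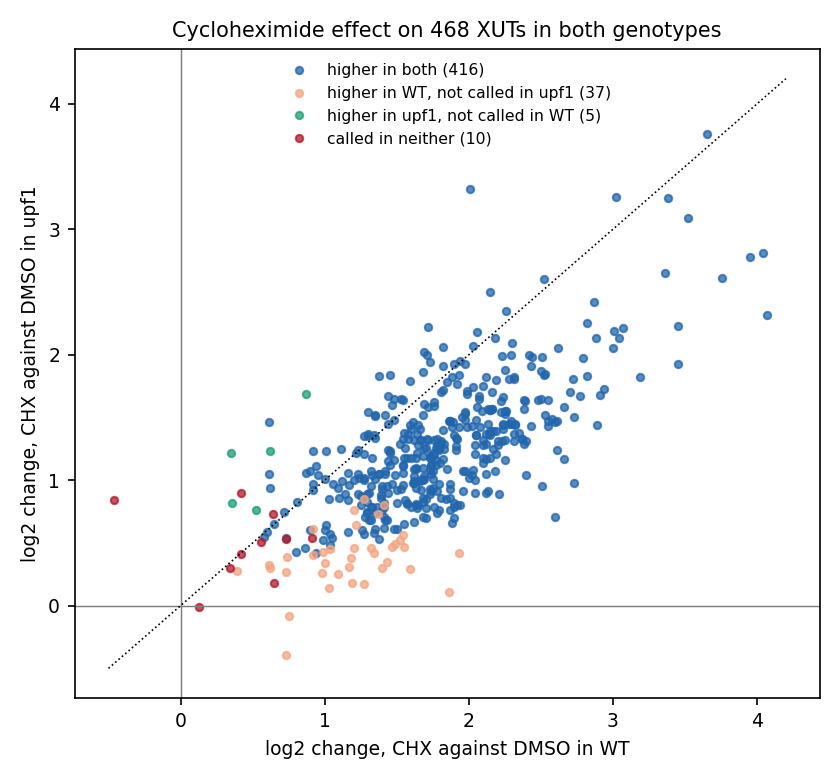
Log2 change of each of the 468 XUTs with CHX in WT (horizontal) and in upf1 (vertical), on the deposited scale, coloured by limma calls. The dotted line marks equal changes. Of the 468 XUTs 416 are called higher in both, 37 in WT alone, 5 in upf1 alone and 10 in neither, and most points lie below the dotted line.

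The comparison of upf1 with WT under CHX uses none of the libraries in the ratio and asks whether loss of Upf1 adds to the translation block. The CHX libraries do enter the level condition. The ratio split the members from the other XUTs by the same genotype contrast in DMSO, so a gap between these sets under CHX is given as a description. For the members the differences were small and ran in both directions. By limma upf1 had 9 members higher (1.92%) and 14 lower (2.99%), where 16.5% and 1.44% of all features were called, and at an unadjusted p under 0.05 the counts were 35 and 38. Of 468 members 4 were 2-fold or more higher, against 4.12% of all features. The median log2 difference was -0.03 (quartiles -0.25 and 0.24), next to 0.32 for protein-coding genes, 0.40 for SUTs, -0.15 for CUTs and 0.50 for the 1004 other XUTs, of which 31.0% were higher and 0 lower. Relative to mRNAs 0 members were higher and 44 lower (9.40%), against 5.86% and 9.22% of all features, with a median of -0.36, next to -0.05 for protein-coding genes. In 94 members both upf1 libraries lay above both WT libraries and in 118 below, against 52.6% and 11.1% of all features. The calls rest on single libraries. Without replicate 2 of upf1 with CHX 0 were higher and 2 lower, without replicate 1 of upf1 with CHX 19 and 18, without replicate 1 of WT with CHX 3 and 0, and without replicate 2 of WT with CHX 3 and 7.

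**Figure D5:**
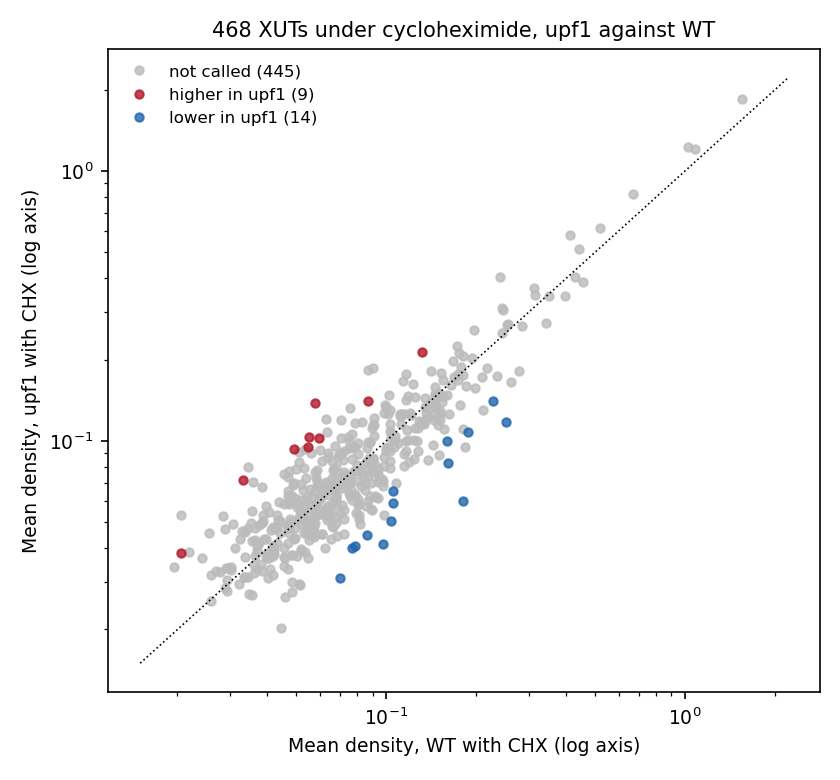
Mean density of each of the 468 XUTs in upf1 with CHX (vertical) and WT with CHX (horizontal), log axes, on the deposited scale, with the dotted line at equal levels. By limma 9 XUTs are higher in upf1 (red), 14 are lower (blue) and 445 are not called, and the 9 higher calls are lost after mRNA rescaling.

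XUT1272 had the most negative difference, a value that shares the WT libraries with CHX with its rise in WT, at 0.0589 and 0.0608 in upf1 against 0.195 and 0.167 in WT. The groups did not overlap, and the log2 difference was -1.51 (SE 0.28, limma adjusted p = 0.00776, mRNA-rescaled -1.81). XUT0691 (245 nt) had 0.0933 and 0.140 in upf1 with CHX against 0.248 and 0.256 in WT with CHX, a difference of -1.10 (SE 0.23, adjusted p = 0.0113). It was also the member with the lowest ratio in DMSO, and there too its upf1 mean was below its WT mean. XUT0334 (-0.95, adjusted p = 0.0170) and XUT1232 (-0.92, adjusted p = 0.0233) were lower too, and XUT0796 at -0.95 did not pass (adjusted p = 0.104). XUT0796 did pass by limma with a pseudocount of 0.05 (adjusted p = 0.0367) and in a fit of the 4 CHX libraries alone (0.0103). It also passed by limma-voom (0.0497, or 0.0403 on rescaled reads), but not by limma after mRNA rescaling (0.121). Without replicate 1 of WT with CHX none of the 4 lower calls held (adjusted p = 0.0543 for XUT1272, 0.0645 for XUT0691, 0.168 for XUT0334 and 0.190 for XUT1232), and without replicate 2 of upf1 with CHX XUT0691 alone of the 4 held (0.0761 for XUT1272, 0.0970 for XUT0334 and 0.171 for XUT1232). By limma-voom XUT1232 did not pass (adjusted p = 0.0523).

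In the other direction XUT1540 (399 nt) had 0.117 and 0.159 in upf1 with CHX, against 0.0724 and 0.0429 in WT with CHX. Both upf1 libraries were above both WT libraries, and the log2 difference was 1.21 (SE 0.25, limma adjusted p = 0.0118). The call was lost after mRNA rescaling (0.82, adjusted p = 0.0717) and without replicate 2 of WT with CHX (0.86, adjusted p = 0.0734) or of upf1 with CHX (0.99, adjusted p = 0.122). XUT1781 was higher at 0.83 (adjusted p = 0.0349), a call lost without replicate 1 of WT with CHX (adjusted p = 0.0800) without replicate 2 of either group (0.171 without that of WT, 0.234 without that of upf1), after mRNA rescaling (0.143) and by limma-voom (0.153). XUT0649 (0.99), XUT0923 (0.97) and XUT0313 (0.90) did not pass, but XUT0649 and XUT0923 did without replicate 1 of upf1 with CHX (1.42 and 1.33, adjusted p = 0.0220 and 0.0406). With a pseudocount of 0.05, and in a fit of the 4 CHX libraries alone, XUT0649, XUT0923 and XUT0313 all passed, and by limma-voom XUT0649 did (adjusted p = 0.0158). By length the called members were unevenly spread. Of the 156 shortest members (200 to 325 nt) 11 were lower and 1 higher, of the next 156 (326 to 570 nt) 0 were lower and 8 higher, and of the 156 longest 3 were lower and 0 higher, counts for which no test was made.

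The members also differed by how close they lay to the limit of the choice. With CHX in WT the median log2 change was 1.54 for the 42 members with a ratio below 1, 1.62 for the 184 with a ratio from 1 to 1.5 and 1.83 for the 242 above that. In upf1 the order ran the other way, at 1.43, 1.21 and 1.12. Both orders contain the DMSO libraries that set the ratio. Under CHX, which does not, the upf1 to WT medians were -0.27, -0.11 and 0.07, in the same order as the ratios in DMSO. The share that rose after mRNA rescaling with CHX in WT was 23.8%, 26.1% and 45.0% in these bands, against 44.1% of all features. The WT libraries with DMSO enter both the bands and this change. By level in WT with DMSO, the 156 lowest members (up to 0.0128) had a median change of 1.98 with CHX in WT, the next 156 a median of 1.63 and the 156 highest (0.0247 and above) 1.53, a comparison in which the DMSO level enters both sides. From the shortest to the longest 156 the medians were 1.68, 1.72 and 1.72, which are nearly equal.

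Some members are counted a second time under another class. In 25 members (5.34%) the reads of all 8 libraries were identical to those of a feature of another class, 13 of them a SUT, 7 a CUT and 5 a NUT, although none of these pairs had the same length. An example, named after its values were seen, is XUT1053, whose 123 and 44 reads in upf1 with CHX, 56 and 31 in upf1 after DMSO, 82 and 72 in WT with CHX, and 16 and 43 in WT with DMSO were also those of SUT467. Among the 1004 other XUTs this held for 30 (2.99%). Identical reads at different lengths mean that the 2 annotations cover the same reads, so these members and their partners are not independent measurements. No genomic position of a XUT was used here, and the genes they overlap are therefore not named.

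The decay machinery itself was measured in the same libraries. Of 25 genes of decapping, NMD, the Ski complex, the nuclear exosome and Nrd1 termination all were higher with CHX in WT, and so were the 24 without NAM7 in upf1, with median log2 changes of 1.51 and 1.16, close to those of all protein-coding genes. Of all protein-coding genes 97.7% were called higher in WT and 95.5% in upf1. On the mRNA-rescaled scale 8 rose and 7 fell in WT, where 34.9% of protein-coding genes were higher and 30.7% lower. In upf1 8 rose and 4 fell, where 22.1% of protein-coding genes were higher and 28.8% lower. XRN1, the gene of the exonuclease that defines XUTs, was at 0.68 with CHX in WT (limma adjusted p = 0.00145) and -0.86 after rescaling. DCP2, the gene of the decapping enzyme, was at 1.88 (adjusted p = 6.45e-07) and 0.35 after rescaling. Under CHX 5 of the 24 were higher in upf1 than in WT and 0 lower, where 19.8% of protein-coding genes were called higher. Relative to mRNAs 3 were higher and 4 lower, against 7.6% and 11.4% of protein-coding genes. The 5, named after their values were seen, were NMD4 (1.15), EBS1 (1.11) and NMD2 (0.87) of the NMD pathway, and SKI2 and SKI3 of the Ski complex, which lost their calls after rescaling (limma adjusted p = 0.0754 and 0.0993).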

How the data were processed

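The deposited values are a normalised signal: 1 density for each feature in each library, and the authors' group means. DESeq2, featureCounts 2.0.0, HISAT2 2.2.0, Trim Galore and build R64 are named per the submitters' processing notes, and the step that made the densities is not given in the sources used here. In every library the values of all 11986 features above 0 were whole multiples of 1 read at 1 feature length, within 0.001 reads, which gave the reads and the lengths. For XUTs the shortest such length of at least 200 nt was taken, since only 12 XUTs had a shorter one. The group means chose the members, and single libraries were used for all tests. Densities were fitted as log2(density + 0.005488), the pseudocount being the 5th percentile of values above 0, so fold changes of low XUTs are understated. Features with a mean below the pseudocount (293) were left out and 11700 tested. All 8 libraries entered 1 linear model (limma 3.58.1, R 4.3.3, mean-variance trend, 4 residual degrees of freedom), with Benjamini-Hochberg adjustment over all features and a threshold of 0.05. "Higher" and "lower" mean past it. The p-values measure the spread between 2 replicates a group. Alternatives were mRNA rescaling, other pseudocounts and filters, limma-voom on recovered reads, a replicate block, fewer libraries, and voom with mRNA rescaling, which was added after seeing the data.

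The members and lists were chosen with earlier results of these data known. XUTs named in the text are those with the largest and smallest changes in each comparison at a mean density at or above the members' median, the 3 most abundant, and those at the ends of the ratio, except where the text says that they were named after their values were seen.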

Additional observations from a re-analysis of the deposited data

Results flagged for a closer look

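On the deposited scale, in 6 of the named XUTs both upf1 libraries lay above both WT libraries in DMSO and below both in CHX. The log2 difference of upf1 against WT was -0.95 in CHX and 0.61 in DMSO for XUT0334, -0.92 and 0.83 for XUT1232, -0.68 and 0.49 for XUT0717, -0.65 and 0.58 for XUT1223, -0.55 and 0.67 for XUT0769, and -0.46 and 0.69 for XUT1592. The difference between the treatments was not tested, since it contains the contrast in DMSO that chose the members, and only XUT0334 and XUT1232 passed the limma threshold in CHX. The same opposite order was found in 71 of the 468 members (15.2%) and in 5.17% of all features. After mRNA rescaling the median member lay 0.05 higher in upf1 than in WT in DMSO, against 0.59 on the deposited scale. Whether the opposite order holds on the rescaled scale was not tested. XUT0717, XUT1223, XUT0769 and XUT1592 were named for their rise with CHX in WT, which uses the same WT libraries with CHX. XUT0334 and XUT1232 were named for their low difference of upf1 against WT in CHX itself, so their calls there are no separate support.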

How the results depend on the processing

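After mRNA rescaling, and with limma-voom on rescaled reads, 167 and 148 members were higher, 24 and 21 lower and 85 and 106 at 2-fold or more with CHX in WT. In upf1 with CHX 59 and 69 were higher, 31 and 35 lower and 26 and 39 at 2-fold or more, and for upf1 against WT in CHX 0 and 1 were higher and 44 and 76 lower. A pseudocount of 0.05 left 141 members at 2-fold or more in WT and 55 in upf1, and gave 22 higher and 33 lower for upf1 against WT in CHX, where a pseudocount of 0.001 gave 4 higher and the 4 libraries alone 19. The cause was not tested. Leaving out single libraries gave 438 to 448 higher, 0 to 1 lower and 408 to 420 at 2-fold or more in WT, 361 to 407 higher, 0 to 1 lower and 270 to 325 at 2-fold or more in upf1, and 0 to 19 higher and 0 to 18 lower for upf1 against WT in CHX.

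Deviations of same-numbered libraries from their group means correlated across features at -0.0287 to 0.121. Such a correlation cannot see a shift common to all features, so whether the replicate numbers pair the libraries is not known. The median protein-coding density in replicates 1 and 2 was 0.787 and 0.983 in upf1 with CHX and 0.339 and 0.388 in upf1 with DMSO. In WT it was 0.649 and 0.700 with CHX and 0.205 and 0.213 with DMSO, so replicate 2 was higher in each group. With the replicate number as a block, 452 members were higher, 0 lower and 419 at 2-fold or more with CHX in WT, 417, 0 and 297 in upf1, and 13 were higher and 19 lower for upf1 against WT in CHX.

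Of 442 alternative values of 34 named results, 368 kept direction and side of the threshold, 31 lost the call, 21 gained one and 22 changed sign. With mRNA rescaling, and with limma-voom on rescaled reads, the change with CHX in WT was -0.82 and -0.80 for XUT0859, -0.78 and -0.83 for XUT0880, -1.07 and -1.11 for XUT0944, -0.97 and -0.99 for XUT1198, -0.86 and -0.93 for XUT1269, -0.86 and -1.0 for XUT1540, -0.86 and -0.91 for XUT1547, and -1.14 and -1.16 for XUT1564. In upf1 it was -0.95 and -1.0 for XUT1089, -0.93 and -0.95 for XUT1138, and -1.14 and -1.39 for XUT0984. On the deposited scale the change of XUT0984 in upf1 ran from -0.53 to 0.37 when single libraries were left out. Depth limits single members, since the median member had 8 to 39 reads per library.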
